A study of Mus musculus with 6 samples.

Results

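The nuclear receptor superfamily and its coregulators were followed in mouse hippocampus as 37 genes, picked by symbol from the 31838 genes of the deposited table. They comprised 6 receptors for thyroid hormone, retinoic acid and vitamin D, 3 retinoid X receptors (RXRs), 6 lipid sensors, 5 steroid receptors, 11 orphan receptors and 6 coregulators, and each of the 37 symbols had a row. Hippocampus was taken from wild-type C57BL/6 mice 4 months old, 3 libraries from mice that received 50 mg/kg/day of the plasticiser butyl benzyl phthalate (BBP) and 3 from mice that received corn oil, the control. All 6 libraries were of polyadenylated RNA, and they are called BBP 1 to 3 and corn oil 1 to 3. Nothing in the labels ties each library to its own animal, so p-values measure the spread between libraries, which may be technical.

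Nuclear receptors are transcription factors, most of them switched by small fat-soluble molecules such as hormones, vitamin derivatives and fatty acids. Many of them pair with an RXR and bind DNA at repeats of the core motif AGGTCA. Without a ligand several recruit corepressors such as Ncor1, and with a ligand they recruit coactivators such as the p160 proteins Ncoa1 to Ncoa3. Monoesters formed from phthalates are known to activate peroxisome proliferator-activated receptors (PPARs) in cell assays. The comparison asks whether the genes for these sensors stood at other levels in the hippocampus of BBP mice.

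Several libraries stood apart in ways that touch the values of these genes. The 10 striatum markers summed to 210 FPKM (fragments per kilobase of transcript, scaled to the library's total) in BBP 1, to 67.3 and 59.8 FPKM in BBP 2 and 3, and to 66.5, 60.6 and 106 FPKM in corn oil 1 to 3, and 10 of the 10 were highest in BBP 1. In corn oil 3 this list was mixed. Penk and Ppp1r1b had 42.5 and 26.0 FPKM there, above every library but BBP 1, while Pde10a and Rasd2 were lowest there (4.21 and 14.5 FPKM). The 8 isocortex markers summed to 166 FPKM in BBP 1 and to 68.3 and 71.8 FPKM in BBP 2 and 3, against 68.8 to 94.8 FPKM in corn oil libraries. Of these 8, 6 were highest in BBP 1 and 1, Fezf2, was lowest there, and Lamp5 alone had 64.5 FPKM in BBP 1. The 6 dentate granule markers, which define the labelled tissue, summed to 54.4, 85.2 and 83.1 FPKM in BBP 1 to 3 and to 67.5 to 82.1 FPKM in corn oil libraries, and no marker of any list was at 0 in every library. In BBP 1, 3 of the dentate granule markers were lowest and 1, Pdzd2, was highest, and Calb1 was highest in corn oil 3 (30.3 FPKM). Of the 6 choroid plexus markers, Ttr made up most of the summed level, with 51.5, 44.5 and 58.5 FPKM in BBP 1 to 3 and 81.4, 115 and 366 FPKM in corn oil 1 to 3, while the medians of the list overlapped between groups (log2 CPM minus the corn oil mean of -0.76, -0.06 and -0.63 in BBP 1 to 3 and -0.70, -0.04 and 0.67 in corn oil 1 to 3). The 8 oligodendrocyte markers summed to 813, 822 and 568 FPKM in BBP 1 to 3 and to 509, 696 and 529 FPKM in corn oil 1 to 3. Genes of the mitochondrial genome took 11.5% of the counts of BBP 2 and 7.11% to 8.57% in the other libraries. In tissue RNA, fewer cells of a type and less RNA per cell cannot be told apart.

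The hippocampus held RNA of most of these receptors, and their levels spanned a wide range. The mean over the 6 libraries was at least 1 FPKM for 27 of the 37 genes and at least 10 FPKM for 6 of them, which were Thra (153 FPKM), Nr3c2 (16.5), Rxrb (14.0), Ncor1 (11.8), Nr1h2 (11.2) and Ncoa1 (10.6). At the low end were Esrrb (0.212 FPKM), Esr1 (0.208), Ppara (0.104), Esr2 (0.0419), Vdr (0.0318) and Nr5a2 (0.00166). The filter on low counts kept 36 of the 37 genes and left out Nr5a2.

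**Figure D1:**
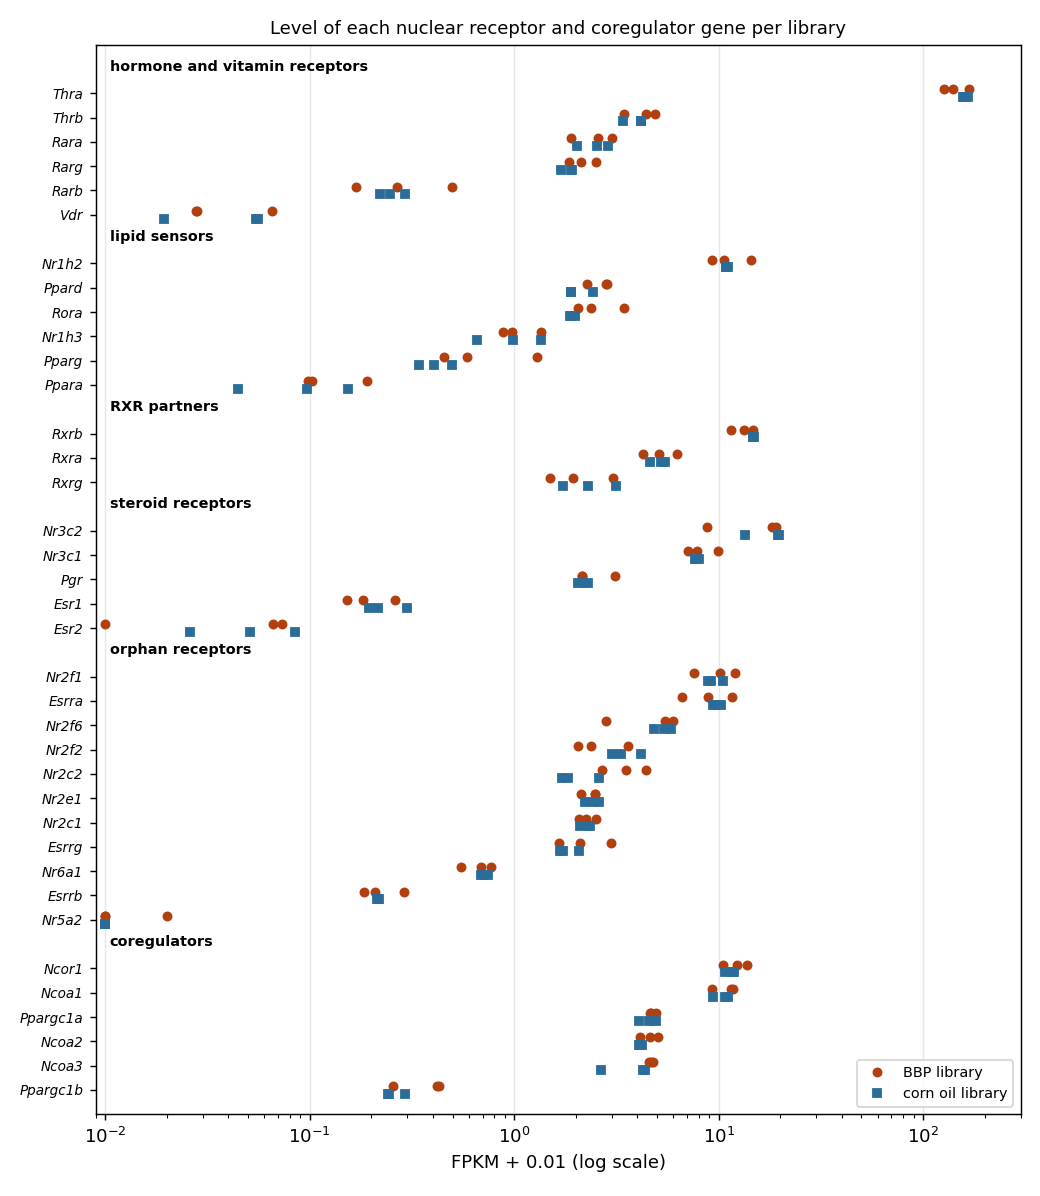
Level of each of the 37 genes in every library, as FPKM + 0.01 on a log axis, by class, with BBP libraries (circles) drawn above corn oil libraries (squares). Thra lies at 127 to 168 FPKM in all 6 libraries, and the symbols of most genes overlap between groups.

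Of the 36 genes tested, 0 passed an adjusted p of 0.05 (edgeR quasi-likelihood test, Benjamini-Hochberg over 20428 genes, smallest adjusted p = 0.953), and 0% of all tested genes did. At an unadjusted p under 0.05 there were 4 of the 36, namely Nr2c2, Rora, Pparg and Ppard, all with a positive log2 fold change (BBP over corn oil), where 3.35% of all tested genes had such a p (1.98% with a positive and 1.37% with a negative value). DESeq2, run on the same counts, gave the same 4 genes at an unadjusted p under 0.05, where 2.61% of all genes in that fit had such a p. At an adjusted p under 0.05 it gave 0 genes of the family. The groups did not overlap in FPKM for 3 of the 36 genes (8.33%), all higher in BBP, against 9.65% of all tested genes (4.40% higher and 5.25% lower), so the count of separated genes was near the background. Positive log2 fold changes were found for 24 of the 36 genes, with a median of 0.09, and for 52.4% of all tested genes, with a median of 0.01.

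The size of what could be missed is given by the intervals. For 29 of the 36 genes (80.6%) a change above 2-fold either way fell outside the 95% interval, which held for 69.9% of all tested genes. The 7 genes with wider intervals were Nr2c2, Pparg, Ppargc1b, Rarb, Ppara, Vdr and Esr2, of which all but Nr2c2 averaged below 1 FPKM. The spread between libraries (SD) was larger in BBP than in corn oil for 32 of the 36 genes, and for 72.7% of all tested genes.

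**Figure D2:**
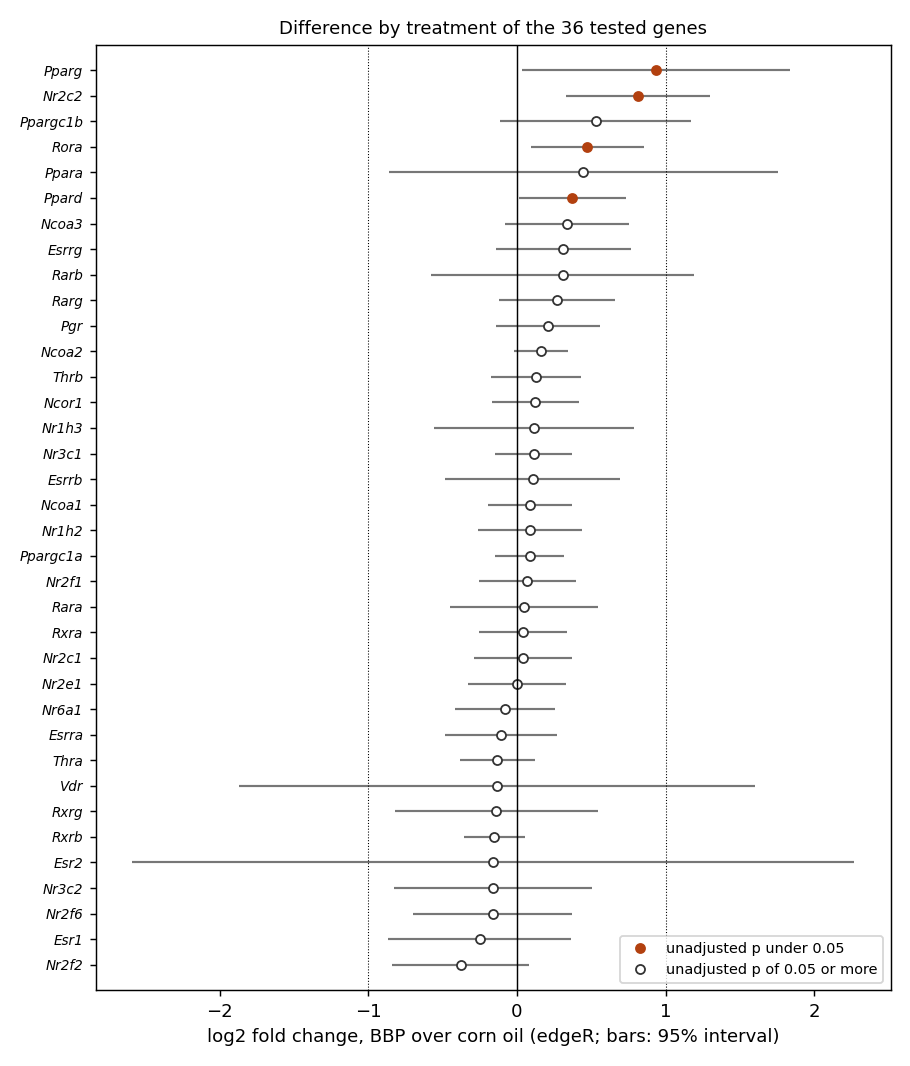
Log2 fold change of BBP over corn oil for the 36 tested genes from edgeR, with 95% intervals; dotted lines mark 2-fold in either direction. Filled points are the 4 genes with an unadjusted p under 0.05 (Pparg, Nr2c2, Rora and Ppard), none of which passed the adjusted threshold.

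Among the receptors for thyroid hormone, retinoic acid and vitamin D, no gene differed beyond the spread between libraries. Thra, which encodes the main thyroid hormone receptor of the brain (chr11:98740638-98765111, plus strand, mm10), had 127, 140 and 168 FPKM in BBP 1 to 3 and 166, 158 and 160 FPKM in corn oil 1 to 3. The lowest value was in BBP 1 and the highest in BBP 3, and the groups overlapped (log2 fold change -0.13 ± 0.11, SE). The value was -0.03 without BBP 1 and -0.22 without BBP 3. Nr1d1, the clock repressor gene REV-ERB-alpha, lies on the opposite strand and shares 263 exon bases with Thra, 5.70% of them. It had 25.8, 34.2 and 20.9 FPKM in BBP 1 to 3 and 20.1, 18.1 and 20.2 FPKM in corn oil 1 to 3. Its log2 fold change was 0.50 ± 0.19 (SE, edgeR unadjusted p = 0.0286 and adjusted p = 0.953). The groups did not overlap for Nr1d1, with BBP higher, which was so for 4.40% of all tested genes. The libraries marked the strand, but no source used here gives the strand setting of the counting, and reads of overlapping genes may be mixed. Thrb, the second thyroid hormone receptor gene, averaged 4.23 ± 0.730 FPKM in BBP and 3.91 ± 0.435 FPKM in corn oil (SD, n = 3 each).

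The retinoic acid receptors Rara, Rarb and Rarg bind all-trans retinoic acid and act as partners of the RXRs. Rara averaged 2.49 ± 0.570 FPKM in BBP and 2.46 ± 0.423 FPKM in corn oil, and Rarg averaged 2.16 ± 0.334 and 1.83 ± 0.116 FPKM (SD, n = 3 each, in the same order). Rarb had 0.484, 0.158 and 0.258 FPKM in BBP 1 to 3 and 0.210, 0.281 and 0.238 FPKM in corn oil 1 to 3. Its highest value was in BBP 1, the library with the highest striatum markers, and its lowest in BBP 2. The log2 fold change of Rarb was 0.31 ± 0.38 (SE) with all libraries and -0.20 without BBP 1. Rarb shares 34.1% of its exon bases with Top2b on the opposite strand, a gene at 6.13 FPKM over the 6 libraries, so its low level is uncertain. Vdr, the vitamin D receptor gene, had 22, 7 and 8 deposited counts in BBP 1 to 3 and 18, 4 and 20 in corn oil 1 to 3, which is too few to compare (95% interval of the fold change 0.273 to 3.03).

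RefSeq promoters (GRCm38.p6, 250 bases before to 50 after each start) were found for 32 of the 37 genes, 52 promoters in all. Stretches that hold the receptors' own binding motif are shown here because members of the family are known to be regulated by one another. The Rarb promoter held the single match among the 52 to DR5, a direct repeat of core motifs spaced by 5 bases (the first base A or G, the third G or T), on either strand. DR5 is known as a retinoic acid response element, and 0.0974% of all 32851 promoters held a match. The core motif AGGTCA itself, on either strand, was in 9 of the 52 (17.3%) and in 16.3% of all promoters, so its share was near the background. A match is a string of letters and not a binding site. The Rarb and Pparg stretches lie in annotated exons of those genes and the other 3 in no annotated exon. The 30 bases around the match, in RefSeq sequence on the gene's strand from 5′ to 3′ with the motif in capitals, are given for 5 genes.
Rarb, chr14:16575506-16575535, minus strand: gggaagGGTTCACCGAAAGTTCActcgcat
Thrb, chr14:17660764-17660793, plus strand: aggagagttgacAGGTCAagggaatagggc
Rxra, chr2:27709232-27709261, plus strand: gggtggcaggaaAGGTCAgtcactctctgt
Rxrg, chr1:167618165-167618194, plus strand: atcggggttgaaAGGTCAgctgaaagcttc
Pparg, chr6:115361104-115361133, plus strand: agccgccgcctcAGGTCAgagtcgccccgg

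The RXRs are the shared partners of the receptors above and of the lipid sensors below. Rxrb was the most abundant, with 14.7, 11.4 and 13.3 FPKM in BBP 1 to 3 and 14.8, 14.9 and 14.7 FPKM in corn oil 1 to 3. The corn oil libraries lay close together, and BBP 1 lay within their range while BBP 2 and 3 lay below it. The log2 fold change of Rxrb was -0.15 ± 0.09 (SE, edgeR unadjusted p = 0.124). It was -0.23 without BBP 1, -0.10 without BBP 2 and -0.14 without BBP 3 (edgeR unadjusted p = 0.0243, 0.242 and 0.229). Without 1 of the corn oil libraries it was -0.16 to -0.14 (edgeR unadjusted p of 0.188 to 0.251). Rxra averaged 5.19 ± 1.00 FPKM in BBP and 5.09 ± 0.445 FPKM in corn oil (SD, n = 3 each). Rxrg, which is known for high expression in striatum, had 3.03, 1.49 and 1.92 FPKM in BBP 1 to 3 and 1.71, 2.28 and 3.16 FPKM in corn oil 1 to 3. Its highest values were in BBP 1 and corn oil 3, the libraries with the highest summed striatum markers, although that list was mixed in corn oil 3. The log2 fold change of Rxrg was -0.14 with all libraries, -0.45 without BBP 1 and 0.11 without corn oil 3. The part of tissue makeup in these values was not tested.

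The lipid sensors were the class with the largest median log2 fold change, 0.41, with positive values for 6 of its 6 genes, although without BBP 1 Nr1h2 had -0.09 and without BBP 3 or corn oil 1 Nr1h3 turned negative. They include the 3 PPARs, which respond to fatty acids. Pparg, best known as the adipocyte regulator (chr6:115360951-115490399, plus strand), had 1.28, 0.444 and 0.581 FPKM in BBP 1 to 3 and 0.333, 0.488 and 0.393 FPKM in corn oil 1 to 3. BBP 1 had the highest level, BBP 2 lay within the corn oil range, and the groups overlapped. The log2 fold change was 0.93 ± 0.39 (SE, unadjusted p = 0.0435 and adjusted p = 0.953 in edgeR's quasi-likelihood test). Without BBP 1 it was 0.38 (unadjusted p = 0.226 in edgeR), a value over 1.5 times smaller, and the unadjusted p was also above 0.05 without any 1 of the corn oil libraries (0.0508 to 0.118). BBP 1 carried most of the Pparg difference.

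Ppard, the most broadly expressed PPAR gene (chr17:28232700-28301474, plus strand), had 2.83, 2.82 and 2.25 FPKM in BBP 1 to 3 and 1.90, 2.42 and 1.89 FPKM in corn oil 1 to 3. The 2 highest values were BBP 1 and 2, and BBP 3 lay below corn oil 2, so the groups overlapped. The same 3 libraries, BBP 1, BBP 2 and corn oil 2, had the highest sums of oligodendrocyte markers, whose part in the Ppard values was not tested. The log2 fold change of Ppard was 0.37 ± 0.16 (SE, unadjusted p = 0.0447 and adjusted p = 0.953 in edgeR). With 1 library left out it ranged between 0.28 and 0.50, with an edgeR unadjusted p above 0.05 without BBP 1, BBP 2, corn oil 1 or corn oil 3 (0.0893 to 0.138). Without both BBP 1 and BBP 2, which leaves 1 BBP library, it was 0.09. Ppara, the fatty acid oxidation regulator of liver, was near the limit of detection, with 24, 25 and 52 deposited counts in BBP 1 to 3 and 10, 24 and 42 in corn oil 1 to 3. About 4 deposited counts appear to stand for 1 fragment, so these libraries held few Ppara fragments, and the 95% interval of its fold change was 0.550 to 3.37.

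Rora, an orphan-type receptor that binds sterols and supports cerebellar and cortical neurons (chr9:68653786-69388246, plus strand), had 3.45, 2.05 and 2.36 FPKM in BBP 1 to 3 and 1.88, 1.88 and 1.97 FPKM in corn oil 1 to 3. All 3 BBP values lay above all 3 corn oil values, which was so for 4.40% of all tested genes, and the distance was largest in BBP 1 and smallest in BBP 2. The log2 fold change was 0.47 ± 0.17 (SE, unadjusted p = 0.0211 and adjusted p = 0.953 in edgeR). Without BBP 1 the log2 fold change of Rora was 0.24 (unadjusted p = 0.0335 in edgeR), a value over 1.5 times smaller, and the p was 0.0569 without corn oil 1 and 0.0574 without corn oil 2. The liver X receptors sense oxysterols. Nr1h2, the broadly expressed form (LXR-beta), had 14.4, 10.6 and 9.30 FPKM in BBP 1 to 3 and 10.8, 10.9 and 11.1 FPKM in corn oil 1 to 3, so BBP libraries lay on either side of the corn oil ones. Nr1h3 (LXR-alpha) averaged 1.06 ± 0.249 FPKM in BBP and 0.989 ± 0.345 FPKM in corn oil (SD, n = 3 each).

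**Figure D3:**
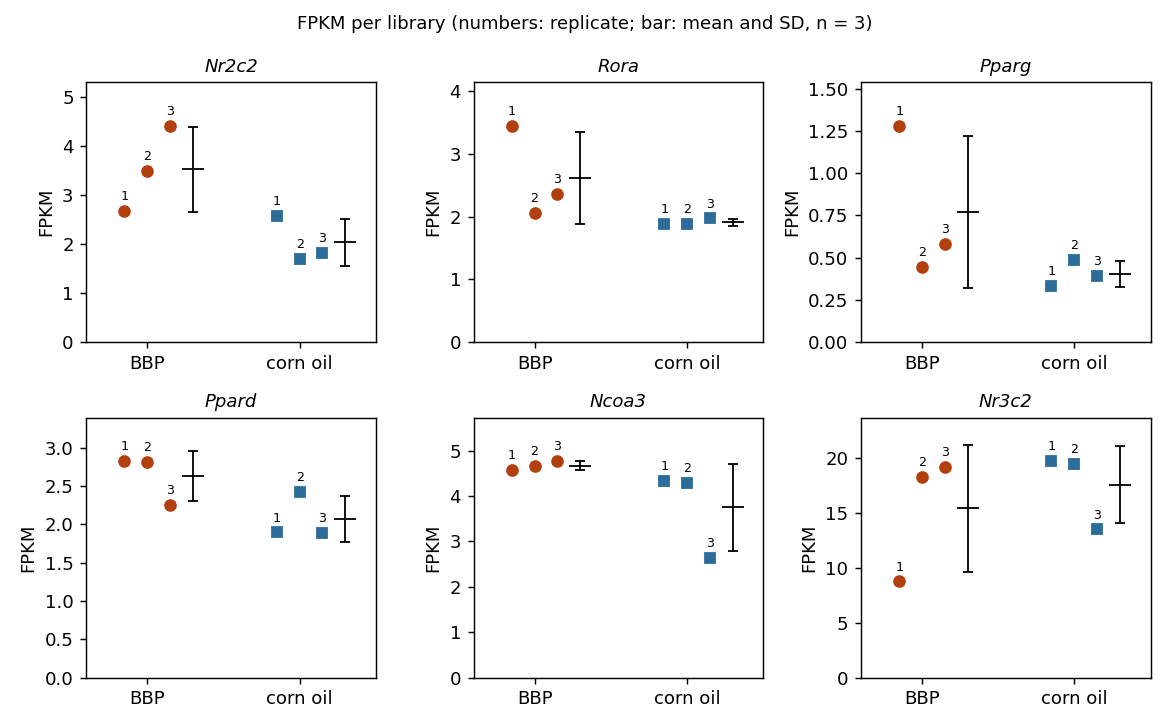
FPKM per library of Nr2c2, Rora, Pparg, Ppard, Ncoa3 and Nr3c2, BBP left and corn oil right, with the replicate number over each point and the mean with SD (n = 3) beside it. BBP 1 is the highest library for Rora (3.45 FPKM) and Pparg (1.28 FPKM) and the lowest for Nr3c2 (8.76 FPKM), whereas for Nr2c2 it is the lowest of the BBP libraries (2.68 FPKM).

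Among the steroid receptors the mineralocorticoid receptor gene was the most abundant, and 1 library set its difference. Nr3c2 encodes the high-affinity corticosteroid receptor for which hippocampal neurons are known (chr8:76899442-77245012, plus strand). It had 8.76, 18.3 and 19.2 FPKM in BBP 1 to 3 and 19.7, 19.5 and 13.5 FPKM in corn oil 1 to 3. The 2 lowest values were BBP 1 and corn oil 3, the same libraries that had the highest striatum sums and the lowest dentate granule sums. The striatum list was mixed in corn oil 3. The dentate granule list was mixed in both libraries, with Pdzd2 highest in BBP 1 and Calb1 highest in corn oil 3. For Nr3c2, BBP 2 and 3 lay within the corn oil range. The log2 fold change was -0.16 ± 0.29 (SE) with all libraries and 0.13 without BBP 1. Nr3c1, the glucocorticoid receptor gene, averaged 8.32 ± 1.48 FPKM in BBP and 7.80 ± 0.190 FPKM in corn oil (SD, n = 3 each), and its highest value, 9.97 FPKM, was in BBP 1.

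The sex steroid receptors stood lower. Pgr, the progesterone receptor gene, had 3.10, 2.15 and 2.15 FPKM in BBP 1 to 3 and 2.04, 2.29 and 2.17 FPKM in corn oil 1 to 3, and only BBP 1 lay outside the corn oil range. Esr1 and Esr2 encode the estrogen receptors. Esr1 had 0.142, 0.173 and 0.251 FPKM in BBP 1 to 3 and 0.207, 0.185 and 0.289 FPKM in corn oil 1 to 3. The groups overlapped, with the highest value of each group in its library 3. Esr1 had a log2 fold change of -0.25 ± 0.27 (SE), which was -0.47 without BBP 3 and -0.04 without corn oil 3. Esr2 had 0, 15 and 14 deposited counts in BBP 1 to 3 and 10, 4 and 20 in corn oil 1 to 3, and at this depth even a 2-fold difference was not detectable (95% interval of the fold change 0.166 to 4.83).

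The orphan receptors held the gene with the smallest p of all 36. Nr2c2 encodes TR4, a receptor that binds direct repeats of the core motif and is known in mice for cerebellar development (chr6:92091390-92174294, plus strand). It had 2.68, 3.50 and 4.42 FPKM in BBP 1 to 3 and 2.58, 1.70 and 1.83 FPKM in corn oil 1 to 3. All BBP values lay above all corn oil values, but BBP 1 and corn oil 1 differed by little. The log2 fold change was 0.81 ± 0.21 (SE), a 1.76-fold difference with a 95% interval of 1.26 to 2.46, with an edgeR unadjusted p of 0.00452 and an edgeR adjusted p of 0.953 (Benjamini-Hochberg). The unadjusted p of Nr2c2 stayed under 0.05 in 16 of 16 other settings, and its adjusted p was 0.304 in DESeq2. These settings refit the same libraries or part of them, so they are not independent tests. With 1 library left out, the log2 fold change of Nr2c2 ranged between 0.65 and 1.02. Without BBP 1, the library with the highest striatum markers, the value was 0.99.

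Nr2c2 shares 4590 exon bases, 30.7% of its own, with Mrps25, a mitochondrial ribosomal protein gene on the opposite strand. Mrps25 had 15.5, 10.3 and 11.7 FPKM in BBP 1 to 3 and 14.4, 15.6 and 16.3 FPKM in corn oil 1 to 3, a log2 fold change of -0.29 ± 0.13 (SE, edgeR adjusted p = 0.953). The library with the highest Mrps25 level in BBP was the one with the lowest Nr2c2 level, and the part of the shared bases in either value was not tested. The 250 bases before the RefSeq start of Nr2c2 and those of Rora, the 2 genes of the family with both an unadjusted p under 0.05 and separated groups, are shown so that they can be set beside the motif-bearing stretches above. The RefSeq start of Nr2c2 lies downstream of the start given in the deposited table. In lower case and on the gene's strand from 5′ to 3′, both stretches hold no match to DR1 to DR5, to AGGTCA, to the extended orphan receptor motif TCAAGGTCA or to the palindrome GGTCANNNTGACC on either strand.
Nr2c2, chr6:92092183-92092432, plus strand: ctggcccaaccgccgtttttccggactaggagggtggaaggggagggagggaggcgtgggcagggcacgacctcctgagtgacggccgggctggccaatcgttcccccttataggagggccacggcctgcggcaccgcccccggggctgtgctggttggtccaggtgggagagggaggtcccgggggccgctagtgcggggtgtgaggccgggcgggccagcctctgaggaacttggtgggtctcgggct
Rora, chr9:68653536-68653785, plus strand: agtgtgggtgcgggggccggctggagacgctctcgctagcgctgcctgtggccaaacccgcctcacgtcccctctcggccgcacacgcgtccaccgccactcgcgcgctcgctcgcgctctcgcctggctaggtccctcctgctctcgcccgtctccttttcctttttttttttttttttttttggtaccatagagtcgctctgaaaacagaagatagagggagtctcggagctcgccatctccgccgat
Of all 32851 promoters, 0.222% held DR1, 0.268% DR2, 0.0396% DR3, 0.0822% DR4, 0.423% TCAAGGTCA and 0.0700% the palindrome, and 0 of the 52 promoters of the family held any of these. The stretches were rich in G and C, at 71.2% of bases for Nr2c2 and 61.2% for Rora.

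Nr2c1, the close relative of Nr2c2 that encodes TR2, averaged 2.26 ± 0.225 FPKM in BBP and 2.24 ± 0.134 FPKM in corn oil (SD, n = 3 each, log2 fold change 0.04 ± 0.14, SE). Nr2e1, the neural stem cell receptor TLX, had a log2 fold change of 0.00 ± 0.14 (SE), with 2.49, 2.47 and 2.12 FPKM in BBP 1 to 3 and 2.21, 2.58 and 2.42 FPKM in corn oil 1 to 3. Of the COUP-TF receptors, which pattern the cortex, Nr2f1 averaged 9.91 ± 2.22 FPKM in BBP and 9.54 ± 0.875 FPKM in corn oil (SD, n = 3 each). Nr2f2, known from interneurons and venous endothelium, had 2.37, 2.04 and 3.59 FPKM in BBP 1 to 3 and 3.33, 2.98 and 4.18 FPKM in corn oil 1 to 3, the most negative log2 fold change of the 36 genes, -0.38 ± 0.20 (SE, edgeR unadjusted p = 0.0936). The Nr2f2 value was -0.62 without BBP 3 (edgeR unadjusted p = 0.00595) and -0.23 without corn oil 3 (edgeR unadjusted p = 0.311). BBP 3 lay within the corn oil range and BBP 1 and 2 below it. Nr2f6 had 2.80 FPKM in BBP 2 and 4.81 to 6.00 FPKM in the other 5 libraries, and 54.4% of its exon bases are shared with Ocel1 on the opposite strand.

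The estrogen-related receptors bind DNA without a known natural hormone and control mitochondrial genes with the PGC-1 coactivators. Esrra had 11.6, 6.61 and 8.82 FPKM in BBP 1 to 3 and 10.3, 9.41 and 9.75 FPKM in corn oil 1 to 3, so that the highest and the lowest values were both in BBP. The lowest was BBP 2, the library with the largest share of mitochondrial counts and the lowest value of 7385 of all 20428 tested genes. Esrrg had 2.96, 1.65 and 2.09 FPKM in BBP 1 to 3 and 1.72, 1.66 and 2.07 FPKM in corn oil 1 to 3, with BBP 1 above all others (log2 fold change 0.31 ± 0.20, SE, and 0.07 without BBP 1). Esrrb had 0.280, 0.175 and 0.200 FPKM in BBP 1 to 3 and 0.206, 0.203 and 0.207 FPKM in corn oil 1 to 3, with BBP libraries on either side of the corn oil range. Nr6a1, the germ cell nuclear factor gene, averaged 0.659 ± 0.111 FPKM in BBP and 0.705 ± 0.0263 FPKM in corn oil (SD, n = 3 each). Nr5a2, a liver and pancreas receptor, had 5 deposited counts in BBP 3 and 0 in the other 5 libraries, under a floor of 12 deposited counts (3 fragments at the assumed 4 counts each) per library. That floor did not decide which genes were tested. The filter on low counts left out Nr5a2 but kept Vdr, Esr2 and Ppara, each with at least 1 library under the floor (for Ppara, 10 counts in corn oil 1).

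The coregulators carried small positive log2 fold changes, 6 of 6 genes with a median of 0.14, although Ncor1 had -0.02 without BBP 2. Ncoa1 to Ncoa3 are the p160 coactivators that receptors recruit when a ligand is bound. Ncoa3 (chr2:165992636-166073242, plus strand) had 4.58, 4.66 and 4.77 FPKM in BBP 1 to 3 and 4.33, 4.28 and 2.64 FPKM in corn oil 1 to 3. All BBP values lay above all corn oil values, with corn oil 3 far below corn oil 1 and 2. The log2 fold change was 0.34 ± 0.18 (SE, unadjusted p = 0.0981 in edgeR), and without corn oil 3 it was 0.14. Ncoa1 had 9.32, 11.5 and 11.8 FPKM in BBP 1 to 3 and 11.1, 10.7 and 9.35 FPKM in corn oil 1 to 3, and the range of BBP took in that of corn oil. Ncoa2 averaged 4.58 ± 0.449 FPKM in BBP and 4.15 ± 0.0755 FPKM in corn oil (SD, n = 3 each).

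Ncor1, the corepressor that holds unliganded thyroid hormone and retinoic acid receptors silent, had 10.5, 13.7 and 12.3 FPKM in BBP 1 to 3 and 11.9, 11.6 and 10.7 FPKM in corn oil 1 to 3. The lowest and the highest value were both in BBP. Ppargc1a (PGC-1 alpha), the coactivator of mitochondrial genes, averaged 4.73 ± 0.180 FPKM in BBP and 4.52 ± 0.428 FPKM in corn oil (SD, n = 3 each). Its relative Ppargc1b had 0.419, 0.245 and 0.408 FPKM in BBP 1 to 3 and 0.283, 0.233 and 0.231 FPKM in corn oil 1 to 3, with a log2 fold change of 0.53 ± 0.28 (SE, unadjusted p = 0.0938 in edgeR), where BBP 2 lay within the corn oil range.

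The variation of these genes over libraries was greatest in BBP 1. BBP 1 held the highest or the lowest value of the 6 libraries for 22 of the 36 genes (61.1%), 15 of them the highest, where over all tested genes it did so for 41.9%. For BBP 2 this was 16 of the 36 (44.4%) against 52.3% of all tested genes, and for BBP 3 it was 12 (33.3%) against 31.6%. Corn oil 1, 2 and 3 were at an extreme for 7, 6 and 9 of the 36 genes (19.4%, 16.7% and 25%), against 25.4%, 21.6% and 26.4% of all tested genes. Relative to the corn oil mean on the log2 CPM scale (counts scaled to the library's total), the genes averaging at least 1 FPKM that stood farthest up in BBP 1 were Rora at 0.85, Esrrg at 0.70 and Pgr at 0.51, and those farthest down were Nr3c2 at -0.99 and Nr2f2 at -0.55. Among the genes under 1 FPKM, Pparg stood at 1.65, Rarb at 0.97, Vdr (22 counts there) at 0.82, Ppargc1b at 0.73 and Esr1 at -0.64, and Esr2 had 0 counts in BBP 1. In the same library the median of the striatum markers was 1.52 and that of the isocortex markers 1.22, while those of the dentate granule, CA1, and CA2 and CA3 markers were -0.60, -0.34 and -0.87. The dentate granule list was split, with 3 of its 6 markers lowest in BBP 1 and 1, Pdzd2, highest there. The CA2 and CA3 list was also split, with 4 of its 6 markers lowest in BBP 1 and 2, Pcp4 and Coch, highest there. Its summed level was 267 FPKM in BBP 1 and 156 to 200 FPKM in the other libraries. With BBP 1 left out, Nr2c2, Rora, Esrra and Rxrb had an unadjusted p under 0.05 in edgeR and 0 of the 36 genes an adjusted one, where 7.00% of all genes in that fit had an unadjusted p under 0.05. The median log2 fold change of the 36 genes was then 0.07. The part of these markers in the values of the receptors was not tested.

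**Figure D4:**
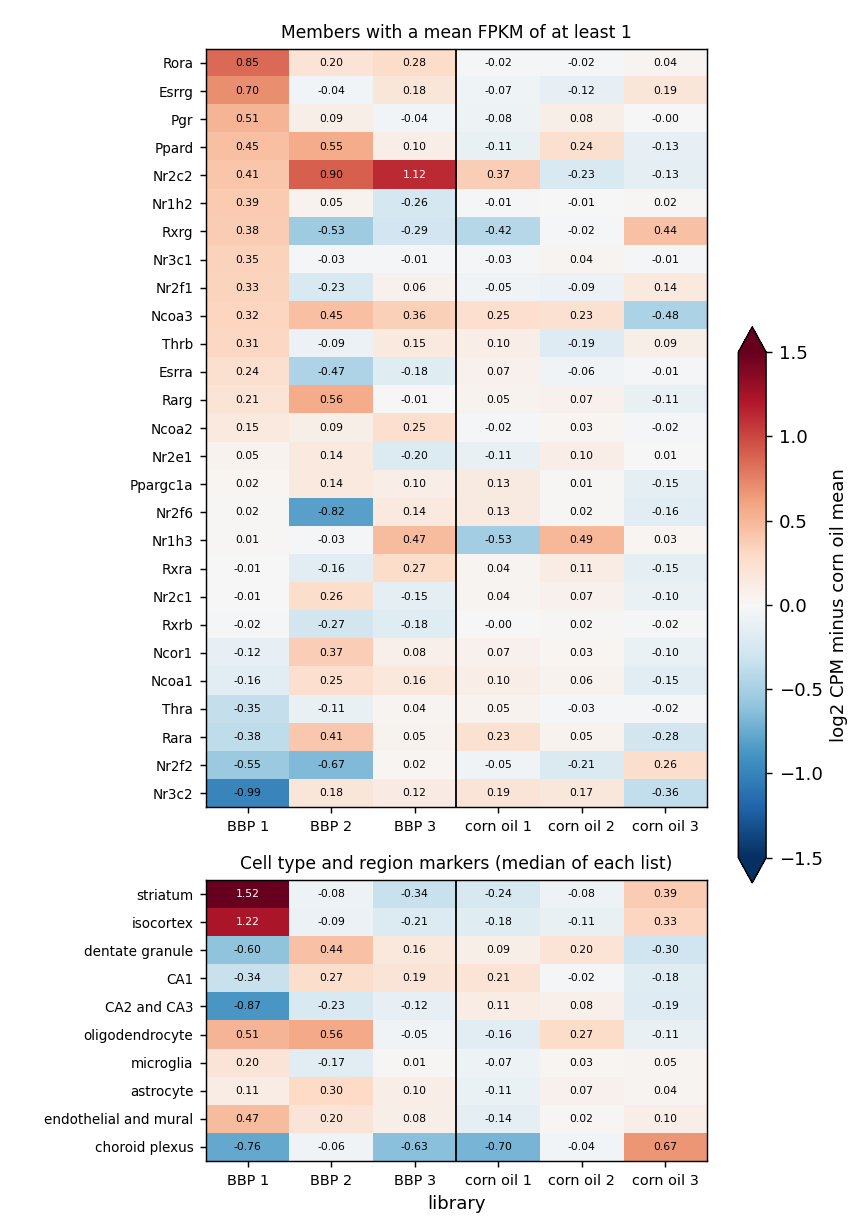
Log2 CPM (counts scaled to the library's total) minus the mean of the corn oil libraries, for the 27 genes with a mean of at least 1 FPKM (top, ordered by BBP 1) and as the median of each marker list (bottom); columns are libraries. The first column runs between 0.85 for Rora and -0.99 for Nr3c2, beside medians of 1.52 for striatum and -0.87 for CA2 and CA3 markers. Of the 6 CA2 and CA3 markers, 4 were lowest and 2 highest in BBP 1. Nr2c2 is the gene with values of 0.41, 0.90 and 1.12 in BBP 1 to 3.

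Other genes of the receptor pathways did not pass the test either. Of 17 other nuclear receptor genes 14 had a row and 9 were tested, and of 17 other coregulator genes 17 were tested. At an adjusted p under 0.05 there were 0 in each direction, and medians were 0.17 (7 of 9 positive) and 0.09 (12 of 17 positive). The smallest p among these receptors belonged to Nr1d1, given above with Thra, and to Nr4a2, an activity-induced receptor of dopamine neurons, at 14.7 ± 0.847 FPKM in BBP and 13.0 ± 0.174 FPKM in corn oil (SD, n = 3 each, log2 fold change 0.21 ± 0.09, SE). The groups did not overlap for Nr1d1 or Nr4a2, both with BBP higher, which was so for 4.40% of all tested genes. Among the coregulators the smallest p belonged to Nrip1, a ligand-dependent corepressor, and to Ncoa6, a coactivator. Their log2 fold changes were 0.22 ± 0.11 and 0.26 ± 0.15 (SE).

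Known target genes of the receptors were read as well. Of 42 targets in 6 lists, 41 could be tested. An adjusted p under 0.05 was reached by 0 of them in either direction (edgeR, smallest adjusted p = 0.953), with 2 higher and 1 lower at an unadjusted p under 0.05, against 1.98% and 1.37% of all tested genes. Among 6 thyroid hormone receptor targets 3 were positive, with a median of 0.02. Klf9, a neuronal thyroid hormone response gene, had 36.5, 33.5 and 38.3 FPKM in BBP 1 to 3 and 32.6, 32.6 and 28.0 FPKM in corn oil 1 to 3, with a log2 fold change of 0.24 ± 0.09 (SE). Dio3, the enzyme that inactivates thyroid hormone, had 1.64, 1.73 and 2.61 FPKM in BBP 1 to 3 and 2.66, 2.84 and 2.94 FPKM in corn oil 1 to 3, with -0.48 ± 0.20 (SE). The groups did not overlap for either gene, where 4.40% of all tested genes were separated with BBP higher and 5.25% with BBP lower. These 2 genes had the smallest p of their list (edgeR unadjusted p = 0.0282 for Klf9 and 0.0433 for Dio3). Both are known to be induced by thyroid hormone, while their log2 fold changes here had opposite signs.

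Among 8 PPAR targets 5 were positive, with a median of 0.06. Cpt1a, which admits fatty acids to mitochondria, had 3.07, 2.73 and 2.75 FPKM in BBP 1 to 3 and 1.97, 2.32 and 2.61 FPKM in corn oil 1 to 3, with a log2 fold change of 0.33 ± 0.13 (SE). Its groups did not overlap, with BBP higher, which was so for 4.40% of all tested genes. Pdk4, which shifts cells from glucose to fat, had 2.34, 2.17 and 3.97 FPKM in BBP and 1.98, 2.22 and 2.02 FPKM in corn oil, with 0.46 ± 0.22 (SE), and BBP 3 carried most of the difference. Both had an adjusted p of 0.953 in edgeR. The 6 LXR targets were positive in 6 of 6 cases with a median of 0.09, led by Abca1, a cholesterol exporter (0.16 ± 0.13, SE), and Srebf1, the regulator of fatty acid synthesis (0.11 ± 0.11).

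For retinoic acid receptor targets, 2 of 5 tested genes were positive with a median of -0.05, and Stra6, a retinol transporter, and Crabp2, a retinoic acid carrier, had log2 fold changes of 0.40 ± 0.31 and -0.40 ± 0.39 (SE). Among the 8 glucocorticoid receptor targets 2 had a positive value, and the median was -0.04. Sgk1, a corticosteroid-induced kinase, had 12.4, 13.3 and 31.8 FPKM in BBP 1 to 3 and 28.2, 29.4 and 19.6 FPKM in corn oil 1 to 3, and the range of BBP took in that of corn oil. Zbtb16, a zinc-finger target, had a log2 fold change of 0.35 ± 0.28 (SE). Among the 8 targets of the estrogen-related receptors and PGC-1, 2 had a positive value, the median was -0.05, and the 2 with the smallest p were the respiratory genes Sdhb (-0.20 ± 0.13, SE) and Cox5a (-0.22 ± 0.15, SE). Both were lowest in BBP 2, at 26.5 and 32.2 FPKM, as were 7385 of all 20428 tested genes.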

How the data were processed

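Polyadenylated RNA of 6 hippocampal libraries (3 BBP, 3 corn oil, grouped by the labelled treatment) was sequenced from strand-marking libraries with molecular identifiers, per the labels' protocols. The submitters' processing notes name HISAT2 2.2.1, StringTie 2.1.6, cutadapt 1.9, edgeR, DESeq2, UMI-tools and the build mm10, without saying what each was used for. Per the file header, the deposited table holds estimated counts (whole numbers, 62477604 to 68422361 per library) and FPKM values made by the authors; how the counts were made is not given in the sources used here. In every library a count of 4 was more frequent than 3 or 5, so 4 counts were assumed to equal 1 fragment, or 15619401 to 17105590 fragments per library.

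The estimated counts were tested with edgeR 4.0.16 in R 4.3.3 (TMM, filterByExpr, quasi-likelihood F test, treatment only, 20428 genes). The SE of a log2 fold change is its size divided by the root of the F statistic, and SDs are of deposited FPKM over 3 libraries. The other settings used DESeq2 1.42.0, limma 3.58.1 on log2(FPKM + 1) or log2(FPKM + 0.1), and refits of edgeR. Same-numbered libraries did not deviate together (correlations -0.08, 0.08 and -0.10 for numbers 1 to 3), so the numbers were not taken as pairs. Overlaps came from GENCODE M21, which held 37 of the 37 genes, 27 of them at the same coordinates. The code was tested on simulated data. Values in every library were given for genes with an unadjusted p under 0.05 or separated groups, the 6 highest and 6 lowest by level, the 6 with BBP 1 farthest from the other 5 libraries, and others where a library stood apart, chosen after values were seen; of each pathway list the 2 genes with the smallest p were named. The genes and lists were chosen with earlier results of these data known.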

Additional observations from a re-analysis of the deposited data

How the results depend on the processing

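In 16 other settings, 0 of the 27 to 37 genes of the family that could be tested passed an adjusted p of 0.05. Over all genes, where edgeR called 0 (685 at an unadjusted p under 0.05), the count was 3 in DESeq2 (Vcp-rs and the predicted genes Gm2004 and Gm2274, named after their values were seen), 0 to 3 with 1 library left out (3 without BBP 1, 1 without corn oil 2) and 10 without BBP 1 and 2, where 1 BBP library is assumed to vary like the corn oil ones. The 4 genes of the family at an unadjusted p under 0.05 became 2 with no filter on low counts (Nr2c2 and Rora, with 2.83% of all genes), 1 in each of the limma fits (Nr2c2, with 2.95% to 3.35%), and 1 to 6 with 1 library left out: 1 without corn oil 1 (1.86% of all genes), 2 without corn oil 2 (2.25%) or without corn oil 3 (462 of 21012 genes), and 6 without BBP 2 (3.43%) or 3 (7.26%). With the replicate number as a block there were 4 (Nr2c2, Rora, Ppard and Nr2f2), and 494 of all genes (2.42%). Separation was judged on FPKM in the edgeR fit given above and in the limma fits, but on scaled counts in the other settings. Changes in the count of separated genes therefore mix the measure with the setting. With the replicate block, on scaled counts, 4 genes of the family were separated (10.4% of all genes). Separated groups, 3 on FPKM, numbered 5 in DESeq2, with median-of-ratios size factors, with no filter and without mitochondrial genes (8.11% to 10.4% of all genes), 6 to 11 with 1 library left out (16.8% to 25.3% of all genes), and 19 without BBP 1 and 2 (52.9%).

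Of 555 log2 fold changes of the family in other settings, 513 kept their sign. With 1 library left out, the values of genes that turned ranged from -0.16 to 0.22 (Rara), -0.20 to 0.59 (Rarb), -0.84 to 0.15 (Vdr), -0.094 to 0.24 (Nr1h2), -0.11 to 0.40 (Nr1h3), -0.0848 to 0.13 (Rxra), -0.45 to 0.11 (Rxrg), -0.70 to 0.47 (Esr2), -0.0237 to 0.18 (Nr3c1), -0.35 to 0.13 (Nr3c2), -0.0808 to 0.13 (Nr2c1), -0.0757 to 0.0935 (Nr2e1), -0.0776 to 0.20 (Nr2f1), -0.34 to 0.0795 (Nr2f6), -0.32 to 0.0435 (Esrra), -0.0932 to 0.21 (Esrrb), -0.18 to 0.0114 (Nr6a1) and -0.0174 to 0.23 (Ncor1). Values that kept their sign but moved by over 1.5 times ranged from 0.0311 to 0.23 (Thrb), 0.10 to 0.39 (Rarg), 0.0591 to 0.96 (Ppara), 0.0262 to 0.32 (Pgr), 0.00618 to 0.20 (Ncoa1) and 0.0174 to 0.16 (Ppargc1a), beside those given in the report for Thra, Pparg, Rora, Rxrb, Esr1, Nr2f2, Esrrg and Ncoa3. Without BBP 1 and 2 the turned values were 0.0317 (Thra), -0.0167 (Rarg), -0.27 (Nr1h2), 0.11 (Esr1), 0.26 (Esr2), -0.0203 (Nr3c1), 0.0935 (Nr3c2), -0.0436 (Pgr), -0.16 (Nr2c1), 0.00335 (Nr2f2), 0.13 (Nr2f6) and -0.0691 (Esrrb), and on counts divided by 4 Nr2e1 had 0.00377. The cause was not tested, beyond the fewer libraries in these fits. Depth limits Nr5a2, Vdr, Esr2 and Ppara.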
